A study of Homo sapiens with 41 samples.

Results

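First intron peaks of Elongin A are sites of Elongin A CUT&RUN enrichment that lay inside the first intron of a protein-coding gene and away from any promoter. They were taken from the goat antibody peak list of DLD1, a human colon cancer cell line. A member is a peak whose summit fell in the first intron of a gene's longest protein-coding transcript, in no annotated exon, more than 1 kb from every protein-coding or lncRNA transcription start site (TSS), and outside the window of 100 bp upstream to 1000 bp downstream of every protein-coding transcript end. The rule found 1076 members among 8720 peaks, or 12.3% of the list. It used positions only, so enrichment, overlap with other lists and sequence were not part of the choice. By the same rules 1898 peaks lay in later introns, 2686 within 1 kb of a TSS, 298 in exons, 284 at coding transcript ends and 2478 elsewhere.

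The study profiled Elongin A in wild-type DLD1 cells that had received no siRNA and had been fixed with formaldehyde before CUT&RUN, in which an antibody tethers a nuclease that cuts out the DNA around its target. The goat antibody was used in 2 replicates with 1 goat IgG control, and these gave 1 deposited list. A mouse antibody CUT&RUN sample with its own IgG control gave a second list of 2338 peaks, and an Elongin A ChIP-seq sample with an input control gave another of 186. DLD1 is a single cell line, and the goat list has no column per replicate. No value has a replicate error, the depth is unknown, and intervals cover counting error only.

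Elongin A is the large subunit of elongin, which forms a complex with Elongin B and Elongin C and was first known for raising the rate of RNA polymerase II in purified systems. It also serves as the substrate receptor of a ubiquitin ligase that acts on stalled polymerase. First introns tend to be the longest introns of human genes and often hold enhancers, the DNA elements bound by transcription factors that act on promoters from a distance. AP-1, a dimer of FOS and JUN family proteins at the end of MAPK signaling, binds the letters TGANTCA at many such elements in epithelial cells.

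The DNA under the strongest members is shown first, because its AP-1 letters lay beside the summits more often than at them. The next lines give the 200 bp centred on the summit of 4 of the 5 members with the highest fold enrichment, from the plus strand of hg19, with TGANTCA in capitals where it occurred. The remaining one, in ZNF644, is not printed and held no AP-1 letters within 300 bp of the summit.
CLIC5, chr6:45979157-45979356: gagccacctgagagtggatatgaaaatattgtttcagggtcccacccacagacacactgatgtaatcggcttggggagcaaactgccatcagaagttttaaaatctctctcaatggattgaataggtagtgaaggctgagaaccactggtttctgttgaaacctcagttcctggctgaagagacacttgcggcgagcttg
FBXO42, chr1:16675556-16675755: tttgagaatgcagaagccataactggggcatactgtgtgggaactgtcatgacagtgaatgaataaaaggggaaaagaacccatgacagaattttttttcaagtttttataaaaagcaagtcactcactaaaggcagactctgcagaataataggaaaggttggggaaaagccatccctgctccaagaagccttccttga
SIK3, chr11:116882127-116882326: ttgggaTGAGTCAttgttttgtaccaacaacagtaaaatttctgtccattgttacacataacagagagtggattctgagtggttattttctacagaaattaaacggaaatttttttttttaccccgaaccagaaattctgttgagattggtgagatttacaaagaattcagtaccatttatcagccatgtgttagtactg
NIBAN1, chr1:184899619-184899818: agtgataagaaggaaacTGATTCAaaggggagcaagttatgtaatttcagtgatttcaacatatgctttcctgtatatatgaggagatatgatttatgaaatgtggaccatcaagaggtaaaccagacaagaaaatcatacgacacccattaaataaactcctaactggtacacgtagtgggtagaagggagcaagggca

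The windows of CLIC5 and FBXO42 held no AP-1 letters, and those of SIK3 and NIBAN1 held them near the left end, 91 and 80 bp from the summit. In the former pair the letters lay just outside the window. The next lines show 47 bp centred on the AP-1 letters nearest to the summit, in capitals, for those of the 10 strongest members whose nearest letters were 100 bp or more from the summit, and for 4 genes of the lists described further on, which were chosen after their values were seen.
CLIC5, 131 bp left of the summit, chr6:45979103-45979149: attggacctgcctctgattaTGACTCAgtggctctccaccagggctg
FBXO42, 135 bp left of the summit, chr1:16675498-16675544: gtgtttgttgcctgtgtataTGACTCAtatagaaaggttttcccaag
GREB1L, 129 bp right of the summit, chr18:18910534-18910580: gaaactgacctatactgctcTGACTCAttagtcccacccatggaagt
HACD3, 171 bp left of the summit, chr15:65825176-65825222: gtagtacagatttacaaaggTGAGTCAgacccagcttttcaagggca
MRTFA, 155 bp right of the summit, chr22:40999501-40999547: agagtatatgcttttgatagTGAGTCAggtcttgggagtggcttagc
SMURF1, 127 bp right of the summit, chr7:98701123-98701169: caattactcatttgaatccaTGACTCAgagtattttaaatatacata
TGFB2, 147 bp right of the summit, chr1:218550765-218550811: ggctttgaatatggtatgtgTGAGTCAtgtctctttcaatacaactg
SMAD3, 155 bp left of the summit, chr15:67383755-67383801: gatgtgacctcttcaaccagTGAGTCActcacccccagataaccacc
DSP, 136 bp left of the summit, chr6:7546488-7546534: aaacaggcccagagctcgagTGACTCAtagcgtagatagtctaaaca

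The members had moderate enrichment. The deposited fold enrichment, which is the ratio of signal at the summit to the local control background, was 4.17 at the median member, lay between 3.47 and 5.17 for the middle of the distribution (interquartile range) and had extremes of 2.27 and 11.9. Later intron peaks had a median of 4.31 (interquartile range 3.60 to 5.17), and peaks within 1 kb of a TSS had a median of 4.37 (3.59 to 5.28) but reached 43.6. The members lacked the extreme values of the TSS peaks and of the later intron peaks, which reached 20.3. The bulk of the classes covered much the same range. The lowest quintile of fold enrichment of the whole list took in 24.3% of members, 19.3% of later intron peaks and 19.9% of TSS peaks.

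A q-value under 0.001 was reached by 774 members, or 71.9% (95% interval 69.2 to 74.5), beside 74.9% of all peaks of the list. The median member was 363.5 bp wide, close to the 362 bp of the whole list. At 31 members the 32 bp at the summit occurred more than once in the genome. Their exact place may be uncertain, since how reads mapped there was not examined.

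The 10 strongest members lay in genes of varied function. The highest, with a fold enrichment of 11.9, was in CLIC5, a chloride intracellular channel family gene, at chr6:45979062-45979435, and it ranked at place 38 of the whole list. FBXO42, which encodes a substrate receptor of SCF ubiquitin ligases, followed with 10.4 at chr1:16675527-16675901, 3319 bp from the TSS of its host. The zinc finger gene ZNF644 had 10.1. These 3 members were the only ones above a value of 10.

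The kinase gene SIK3 had 9.44 (chr11:116882087-116882398) and NIBAN1 had 9.42 (chr1:184899307-184899928). RIPOR1 had 9.27, GREB1L had 9.24 and HACD3, an enzyme of very long chain fatty acid elongation, had 9.16. MRTFA, a coactivator of SRF that responds to actin, had 9.16 and the sulfotransferase gene TPST2 had 9.05. None of the 10 overlapped a peak of the mouse antibody or ChIP-seq list, and none of the 10 host genes had a peak within 1 kb of a coding TSS of its own. The AP-1 letters were within 300 bp of the summit at 7 of them, the exceptions being ZNF644, RIPOR1 and TPST2.

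The 3 widest members were in TRA2B, EREG and HOXB6. The TRA2B peak, in the gene of a splicing regulator, covered 4547 bp at chr3:185649647-185654193 with a fold enrichment of 5.29. The peaks in EREG (chr4:75242228-75245124, fold enrichment 5.62) and HOXB6 (chr17:46675433-46678329, 5.49) were each 2897 bp wide. Wide calls of this kind were rare, since the upper quartile of width was 515 bp.

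The first intron held more peaks per base than later introns of the same list. Eligible sequence is the part of the introns in which a summit could have met the rule. It came to 265 Mb in first introns, where the density was 4.06 peaks per Mb (95% Poisson interval 3.82 to 4.31), and to 767 Mb in later introns, where the density was 2.48 per Mb (2.37 to 2.59). The ratio was 1.64. First intron bases are on average closer to a TSS, so densities were also taken at matched distance.

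At matched distance from the TSS of the host's own longest transcript the difference was uneven. At 1 to 2 kb the density was 7.75 per Mb in first introns (67 peaks) and 7.33 in later introns (11 peaks), and at 2 to 5 kb it was 5.43 and 5.31. At 5 to 10 kb it was 5.55 and 3.16, at 20 to 50 kb 4.60 and 2.95, and at both distances the intervals did not overlap. At 10 to 20 kb (4.06 and 3.67), at 50 to 100 kb (3.18 and 2.92) and beyond 100 kb (1.59 and 1.881) they did overlap. The first intron density itself fell from 7.75 to 1.59 per Mb over these bins.

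When distance was measured to the nearest TSS of any coding or lncRNA gene, a measure added after the data were seen, the first intron density was the higher one out to 50 kb. It was 7.05 per Mb (interval 5.96 to 8.28) against 4.03 (3.48 to 4.63) at 1 to 2 kb, and 3.56 (3.09 to 4.09) against 2.11 (1.91 to 2.34) at 20 to 50 kb. At 50 to 100 kb both were 1.53. Beyond 100 kb from any TSS only 3 members remained in 12.7 Mb, a density of 0.235 per Mb (0.0485 to 0.688), and later introns had 0.735 (0.536 to 0.984), so the order was the other way round with overlapping intervals.

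**Figure D1:**
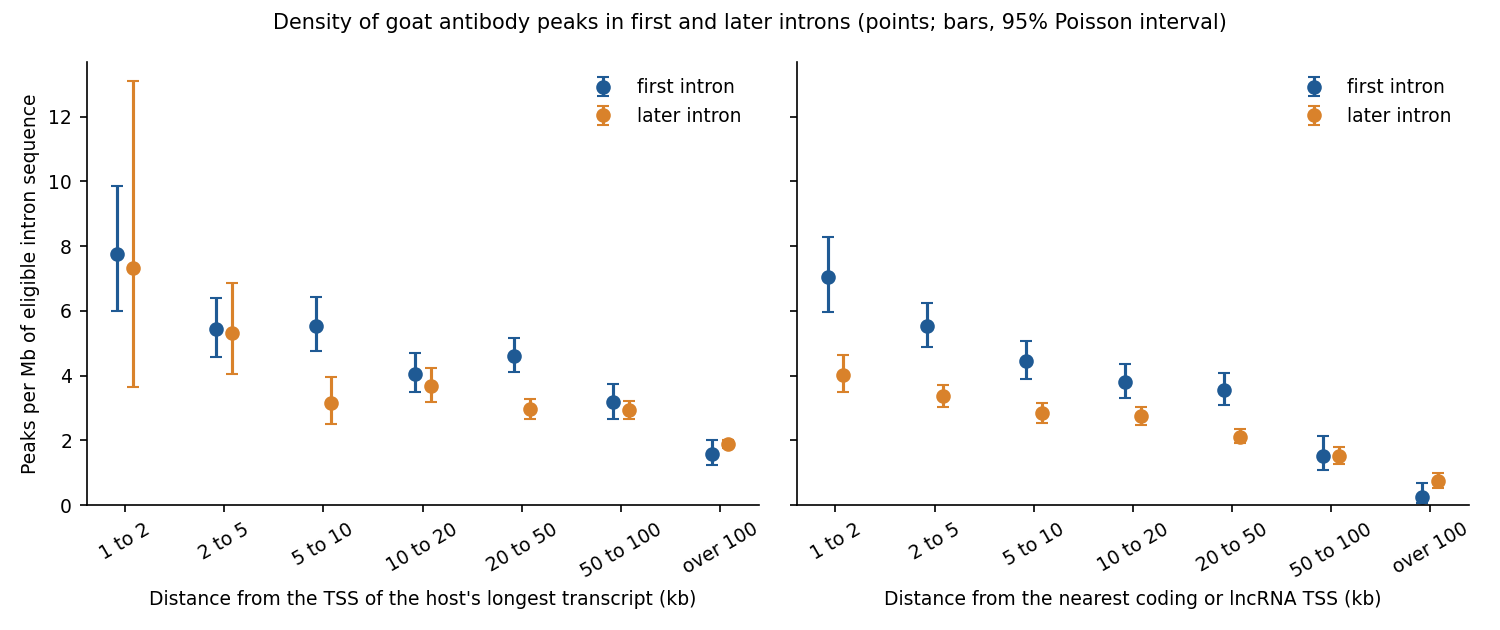
Goat antibody peaks per Mb of eligible sequence in first introns (blue) and later introns (orange), by distance from the TSS of the host's longest transcript (left) and from the nearest coding or lncRNA TSS (right), in kb; bars are 95% Poisson intervals. First intron density fell from 7.75 to 1.59 per Mb on the left and from 7.05 to 0.235 on the right, and its intervals were clear of those of later introns at every distance up to 50 kb only on the right.

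The median member lay 17.7 kb from the TSS of its host (interquartile range 6.56 to 39.8 kb) and 7.78 kb from the nearest coding or lncRNA TSS. The farthest, in the first intron of NRG1, was 624 kb away. Fold enrichment hardly changed along the way: its median was 4.05 at 1 to 2 kb, 4.15 at 20 to 50 kb and 4.17 beyond 100 kb. Within the intron, summits were found along the whole length, with more of them toward the 5′ end. With the eligible bases of each host intron cut into deciles from the 5′ end, the first decile held 132 summits (12.3%, interval 10.4 to 14.4) and the last held 91 (8.46%, 6.94 to 10.3). In introns with under 10 kb of eligible sequence the 25% of bases nearest the 5′ end held 38.4% of 159 summits (31.2 to 46.1) and the 25% nearest the 3′ end held 19.5% (14.1 to 26.3). With 10 to 50 kb these shares were 27.0% (23.1 to 31.2) and 22.8% (19.2 to 26.9). With 50 kb or more they were 27.1% (23.3 to 31.3) and 23.2% (19.6 to 27.3). In both groups of longer introns the intervals overlapped.

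**Figure D2:**
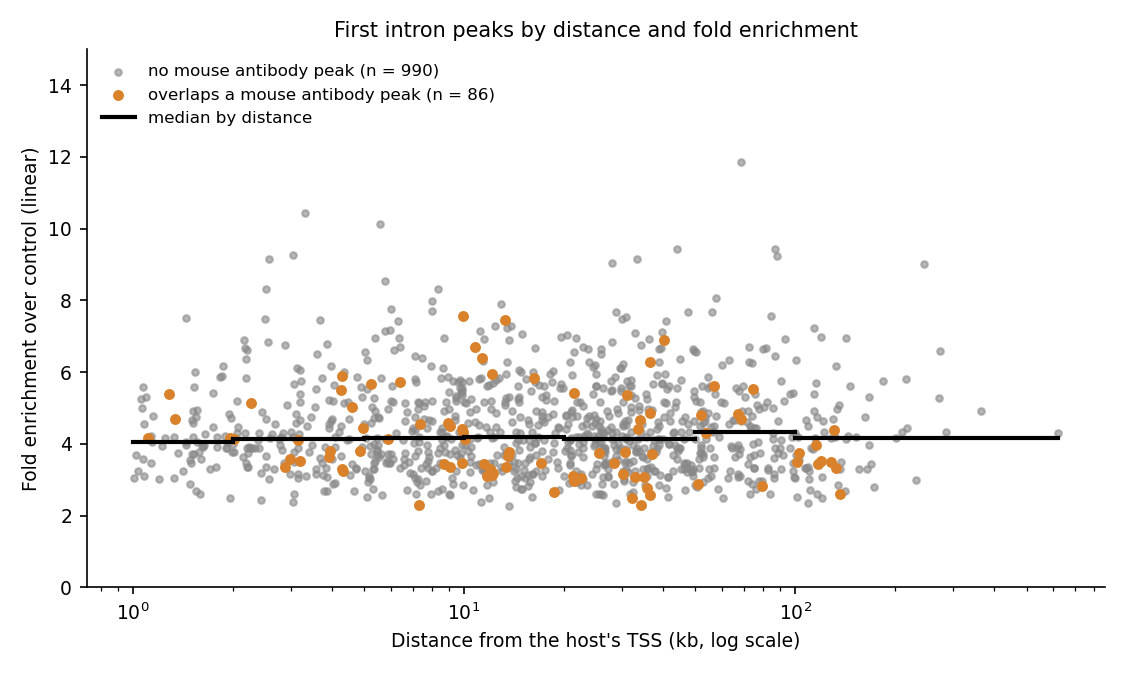
Deposited fold enrichment (linear axis) of each first intron peak against distance from its host's TSS (kb, log axis); orange points overlap a mouse antibody peak and black lines are medians by distance. The medians stay between 4.05 and 4.32 from 1 kb to beyond 100 kb.

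Values on either side of the 1 kb limit were mixed. Just inside it lay a peak in TRA2B, 1004 bp from the nearest TSS, with a fold enrichment of 6.18, and a peak in GOT1, an aminotransferase gene, 1006 bp away, with 3.04. Just outside it were first intron peaks in PLEKHG3, at 999 bp with 4.49, and in ATP6V0E1, at 995 bp with 3.66.

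The members fell in 787 host genes, 6.02% of the 13066 coding genes that had any eligible first intron sequence. Most members, 1056, had 1 host, and 20 lay in the first introns of overlapping genes. A single member was found in 603 host genes, 2 members in 116 and 3 or more in 68. Host introns were long, with a median of 39.4 kb against 7.82 kb for eligible genes without a member. By quintile of eligible first intron length the share of genes that were hosts rose from 0.459% (up to 1.37 kb) to 17.5% (27.7 kb or more), while the density went from 8.06 to 3.51 peaks per Mb.

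Host genes more often had a promoter peak, meaning a summit within 1 kb of one of their own coding TSSs. This was so for 153 of 787 hosts, or 19.4% (interval 16.8 to 22.4), beside 9.74% of all eligible genes. Within the longest quintile of eligible first introns 77 of 239 genes with a promoter peak were hosts (32.2%), against 379 of 2374 without (16%). The density in first introns was 10.4 per Mb (9.12 to 11.9) where the gene had a promoter peak and 3.48 (3.25 to 3.72) where it had none. Later introns showed the same order, with 6.05 and 2.14 per Mb. A promoter peak was still missing at 634 of the hosts, and where both were present the promoter peak was the stronger in 79 of 153 genes.

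Several genes carried runs of members. MB21D2 had the most, 9 members in the first intron, 118 kb long, of the gene at chr3:192514604-192635645, with fold enrichments of 3.31 to 7.03. Of these, 8 lay in the stretch between 20.5 and 38.8 kb from the TSS and the other one at 98.6 kb. The gene had neither a promoter peak nor a later intron peak.

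EREG encodes epiregulin, a ligand of the EGF receptor, and its short first intron of 14.1 kb held 7 members. From the TSS outward their fold enrichments were 2.596 at 3.07 kb, 3.17 at 3.58 kb, 4.19 at 4.08 kb, 8.54 at 5.76 kb, 6.44 at 7.13 kb, 7.55 at 9.96 kb and 5.62 at 11.7 kb. The middle of the intron was thus highest. No summit lay within 1 kb of an EREG coding TSS, and 3 more peaks lay in its later introns. Of the 7, the peak at chr4:75239842-75240971 also overlapped a mouse antibody peak, where the fold enrichment was 2.80.

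ABLIM1, which encodes an actin-binding LIM protein, had 6 members between 120 and 165 kb from its TSS, and 3 of them overlapped mouse antibody peaks. The alpha-actinin gene ACTN4 also had 6, with fold enrichments of 3.81 to 6.29, from 10.2 to 44.8 kb. CTDSPL, a member of the small CTD phosphatase family, had 6 with values of 2.596 to 5.03 and no mouse antibody overlap. Another 6 genes were tied at 6 members: EXT1, HIVEP2, SH3BP4, SPRED2, TGFB2 and WWC1. Another summit lay within 1000 bp of 8.83% of members and of 9.44% of all peaks.

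Small RNA genes were seldom nearby. A small RNA gene lay within 500 bp of 6 member summits (0.558%), beside 11 of the later intron peaks (0.580%). The strongest of the 6 was in NUMA1, a gene of a spindle protein, near MIR3165, with a fold enrichment of 7.98.

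Members were found on every chromosome from 1 to 22 and on X. The density on chromosome X, 0.631 per Mb (7 peaks in 11.1 Mb), was below that of any autosome, where it ran from 2.89 on chromosome 21 to 5.73 on chromosome 16. Later introns (0.466 per Mb) and the whole list (0.675 per Mb of sequence) were low on X as well. The list gives no copy number, so fewer copies of a chromosome and less signal per copy cannot be told apart.

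The other antibody found few of the same sites. A mouse antibody peak overlapped 86 members by at least 1 bp, or 7.99% (interval 6.52 to 9.77), beside 8.33% of the whole list, 6.64% of later intron peaks and 9.68% of TSS peaks. Seen from the other list, 87 of its 266 first intron peaks (32.7%) overlapped a goat antibody peak, and 32.4% of all its peaks did.

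Overlap did not go with higher goat antibody fold enrichment. By q-value the order differed: overlap was 9.82% among members with a q-value under 0.001, beside 7.99% of all members. Members that overlapped a mouse antibody peak had a median fold enrichment of 3.79 (interquartile range 3.34 to 4.78) against 4.19 (3.48 to 5.17) for the rest, and they were wider, with a median of 533.5 bp against 356.5 bp. The strongest such member was the EREG peak with 7.55. It was followed by a peak in GRHL2, a gene of an epithelial transcription factor, with 7.46 and a mouse antibody value of 6.24, and by one in the tubulin gene TUBA1C with 6.90 and 3.66. NUMA1, TUBA1C and, in the gene lists described further on, PXN, CDX2, KLF5, FOXA1 and FOSL1 are outside the naming rule and were chosen after their values were seen.

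No member overlapped a ChIP-seq peak, beside 73 peaks (0.837%) of the whole list, 4 of the later intron peaks and 37 of the TSS peaks. Only 1 of the 186 ChIP-seq peaks had its own summit in a first intron by the same rule. There is accordingly no first intron site shared by all 3 lists.

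The members held the letters of AP-1 more often than first intron sequence at large. The word TGANTCA (either strand) occurred within 300 bp of the summit at 539 of 1076 members, or 50.1% (interval 47.1 to 53.1). Of all 429151 tiles of 600 bp in eligible first intron sequence, 17.5% held them. The window of 600 bp was added after the data were seen. In the 200 bp centred on the summit the letters occurred at 128 members, or 11.9% (10.1 to 14.0), beside 6.14% of the tiles of that length.

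The AP-1 letters flanked the summit. Counted in bins of 25 bp over all members, they occurred 13 to 21 times in each bin within 75 bp of the summit, rose to 52 at 150 to 175 bp on the left and 51 at 200 to 225 bp on the right, and were back to 11 to 15 at 300 to 350 bp. At 100 to 250 bp on either side the rate was 1.45 per kb (interval 1.32 to 1.59), against 0.646 (0.543 to 0.763) within 100 bp and 0.352 (0.318 to 0.390) at 500 to 1000 bp. These zones were not planned in advance, and that of 100 to 250 bp takes in the highest bins of the same counts. The contrast between zones is therefore a description only. Of the 539 members with the letters, the nearest copy lay 100 to 250 bp from the summit in 363 and within 100 bp in 130. It was inside the called peak in 279.

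The mouse antibody list, which had no part in the choice of members, also had more of the letters beside the summit than at it. Of its 266 first intron peaks 87 overlapped a goat antibody peak, so the sites are not all separate. Around the 266 summits the AP-1 rate was 1.42 per kb (1.17 to 1.70) at 100 to 250 bp, 0.357 (0.215 to 0.558) within 100 bp and 0.391 (0.319 to 0.474) at 500 to 1000 bp. The 179 of these peaks that overlapped no goat antibody peak held the letters within 300 bp in 87 cases, or 48.6% (41.4 to 55.9). For these 179 alone the rate by distance from the summit was not taken. With each antibody the rate within 100 bp was thus below that at 100 to 250 bp, but in the goat list it was still above the rate at 500 to 1000 bp, while in the mouse list those intervals overlapped.

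**Figure D3:**
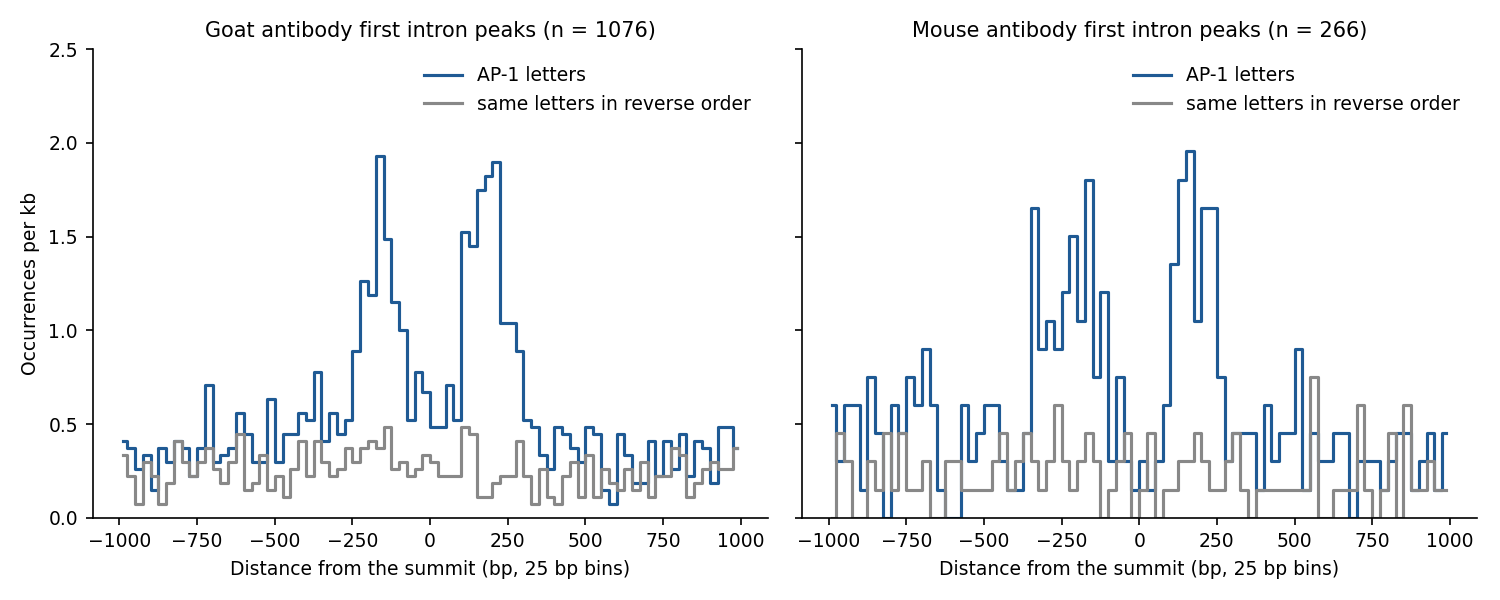
Occurrences per kb of the AP-1 letters TGANTCA (blue) and of the same letters in reverse order (grey) in 25 bp bins from 1000 bp left to 1000 bp right of first intron summits of the goat antibody list (left) and of the mouse antibody list (right). In the goat list the blue line reaches 1.93 per kb on the left and 1.90 on the right of the summit with a low between them, and the grey line has no such pair of maxima.

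The letters at the middle of the motif made a difference. With C or G at the middle, TGACTCA, the form that AP-1 binds best, was found within 300 bp of 38.2% of members and in 9.09% of tiles. With A or T there, TGAATCA was found at 18.3% and in 9.34%. The same letters in reverse order, ACTNAGT, were found at 15.8% (170 members) and in 13.4% of tiles. The first and second of these words are forms of TGANTCA, and all 3 were added after the data were seen.

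Peaks outside first introns held the letters as well. AP-1 letters were within 300 bp of 50.5% of later intron peaks, 23.2% of TSS peaks and 41.2% of the whole list. Later introns had 1.60 occurrences per kb at 100 to 250 bp and 0.593 within 100 bp. Among members the share was 32.8% (22.8 to 44.7) at 1 to 2 kb from the host TSS, 42.9% (35.0 to 51.1) at 2 to 5 kb, and 49.3 to 54.9% in each of the farther bins.

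Members with and without AP-1 letters were alike in strength, with median fold enrichments of 4.17 in both groups and widths of 360 and 372 bp. A mouse antibody peak overlapped 7.24% of the first (5.34 to 9.74) and 8.75% of the second (6.65 to 11.4). The host had a promoter peak for 17.3% of members with the letters (14.3 to 20.7) and for 25% without (21.5 to 28.8). From the lowest to the highest quintile of fold enrichment the share with AP-1 letters was 53.2, 52.1, 42.8, 47.4 and 54.9%, without a steady order.

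Other factors' letters were searched on both strands in the same 600 bp windows. TEAD (GGAATG), the partner of YAP, was found at 43.7% of members and in 28.6% of tiles. RUNX (AACCACA) was at 19.9% and 11%, and FOX (TGTTTAC), the word of forkhead factors such as FOXA1, at 17.5% and 9.03%. The core word of CTCF, which organizes chromatin loops, CCACNAGNG, was at 7.99% and 4.17%, and the ETS word CCGGAA at 6.04% and 3.59%. The word of GATA factors, AGATAA, was at 42.8% and 36.2%. Later intron peaks had similar shares: TEAD 41.6%, RUNX 19.6%, FOX 16.3%, CTCF 6.80%, ETS 5.58% and GATA 42.5%. At 100 to 250 bp from the summit the TEAD word reached 1.19 per kb against 0.767 within 100 bp. The RUNX word reached 0.468 (interval 0.396 to 0.549) against 0.288 (0.221 to 0.369). In the goat list both were thus more frequent beside the summit than at it. The GATA word had 1.03 (0.927 to 1.15) and 0.957 (0.831 to 1.10), with overlapping intervals. The mouse antibody first intron peaks differed. Their intervals overlapped for TEAD (1.07 and 0.827 per kb) and RUNX (0.338 and 0.320). For GATA they did not, with 1.05 (0.840 to 1.30) at 100 to 250 bp and 0.545 (0.365 to 0.783) within 100 bp.

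Words near the level of the tiles were NF-Y (CCAAT, 57.5% and 58.9%) and TCF/LEF (CTTTGAT, the word of the WNT pathway, 11% and 9.24%). The E-box (CACGTG) was at 7.06% of members (interval 5.68 to 8.75) and 5.47% of tiles. The GC box (GGGCGG), a hallmark of CpG island promoters, was at 12% of members, 8.12% of tiles and 50.3% of TSS peaks. HNF4 (CAAAGTCCA) was rare, at 1.49% of members (16 peaks, interval 0.917 to 2.40) and 0.768% of tiles. CRE (TGACGTCA) was rarer still, at 0.465% of members (5 peaks, 0.199 to 1.08) and 0.220% of tiles. Some of these words overlap in part, and a match is not a bound site.

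**Figure D4:**
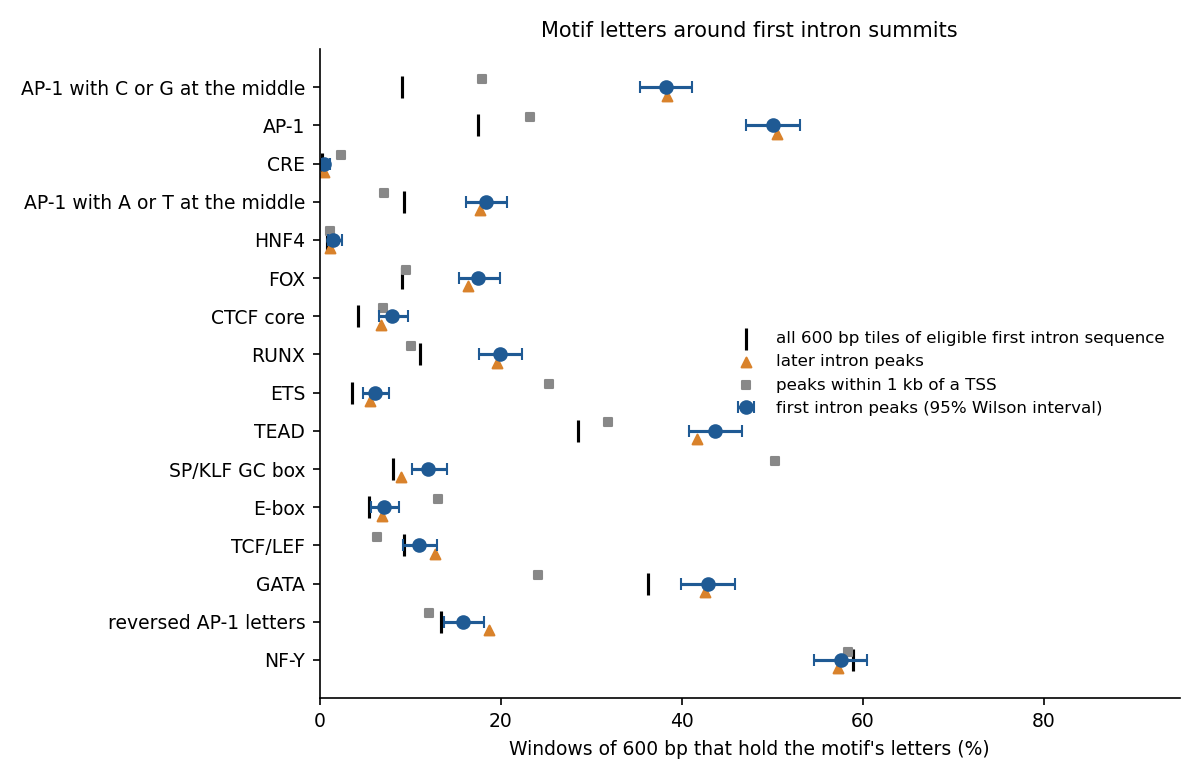
Percent of 600 bp windows that hold each motif's letters on either strand, for first intron peaks (blue, 95% Wilson interval), later intron peaks (orange triangles), peaks within 1 kb of a TSS (grey squares) and all tiles of eligible first intron sequence (black bars). AP-1 stands at 50.1% against 17.5% of its tiles and its form with C or G at the middle at 38.2% against 9.09%, while the GC box (50.3%) and the ETS word (25.3%) are more frequent at TSS peaks than at first intron peaks.

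Base composition was close to that of first intron sequence at large. The 200 bp at the summit had a median GC content of 42.0% (interquartile range 37 to 48.5), beside 41.0% in all first intron tiles and 52.0% at TSS peaks. The ratio of observed to expected CpG was 0.200 at members, 0.179 in the tiles and 0.510 at TSS peaks.

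Gene groups were read from 7 lists of 30 genes, against the 6.02% of all eligible genes that were hosts. Adhesion and actin cytoskeleton genes held the largest share, 12 of 25 eligible genes or 48.0% (interval 30.03 to 66.5), with 35 members in 0.937 Mb. ABLIM1 led with a highest fold enrichment of 6.96. ITGA6, the integrin alpha 6 subunit of hemidesmosomes, had 5 members and 6.89, and DSP, the desmosome protein desmoplakin, had 2 and 6.34. ACTN4 had 6.29. PXN, the focal adhesion adaptor paxillin, had 4 members up to 6.28, and the strongest overlapped a mouse antibody peak with a fold enrichment of 7.16.

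Epithelial and AP-1 family transcription factor genes had short eligible introns, with a median of 5.28 kb, and 8 of 18 were hosts, or 44.4% (24.6 to 66.3). GRHL2 had 2 members up to 7.46, the ETS factor gene ELF1 had 2 up to 5.62, and KLF3 and EHF had 1 each with 5.28 and 4.72. CDX2, which specifies intestinal epithelium, KLF5, FOXA1 and FOSL1, itself an AP-1 subunit, were the other 4 hosts. FOSL1 had a fold enrichment of 4.18 at chr11:65662613-65662887, 5.06 kb from its TSS.

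Of the EGFR, RAS and MAPK signaling genes, 4 of 22 were hosts (18.2%, 7.31 to 38.5) and they held 18 members. Next to EREG with 7 members stood EGFR, the receptor, with 4 up to 5.40, of which the strongest lay 114 kb from the TSS. SPRED2, an inhibitor of RAS signaling, had 6 up to 4.97.

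Among TGF-beta and BMP signaling genes 4 of 24 were hosts (16.7%, 6.68 to 35.9). SMURF1, a ubiquitin ligase that targets receptors and SMADs, had the strongest member with 7.41, at chr7:98700712-98701106. The ligand gene TGFB2 had 6 members up to 5.79, the signal transducer SMAD3 had 1 with 5.75 and the receptor gene ACVR1B had 1 with 3.51.

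The WNT list had 3 hosts of 15 (20%, 7.05 to 45.2), all below the median member: BCL9L with 3.71, the stem cell receptor gene LGR5 with 3.07 and ZNRF3 with 2.35. The LGR5 peak overlapped a mouse antibody peak with a fold enrichment of 4.04. Nuclear receptor and coregulator genes had 2 of 26 (7.69%, 2.14 to 24.1), the clock repressor gene NR1D2 with 4.84 and the glucocorticoid receptor gene NR3C1 with 4.60. Long neuronal genes, included as long genes of another tissue, had 1 of 28 (3.57%, 0.633 to 17.7), which was NRG1 with 4.32, although their eligible first introns came to 9.33 Mb. The density there was 0.107 per Mb, beside 56.0 in the transcription factor list, 37.4 in the adhesion list and 4.05 per Mb over all eligible genes counted gene by gene. The median eligible length was 34.2 kb in the WNT list and 33.1 kb in the adhesion list, beside 6.465 kb over all eligible genes. In the longest quintile of eligible first introns 17.5% of genes were hosts. A promoter peak was present at 36% of adhesion, 33.3% of transcription factor, 13.3% of WNT and 0% of long neuronal genes. It was present at 23.1 to 27.3% in the remaining lists and at 9.74% of all eligible genes. The lists thus differ in intron length and promoter peaks and were chosen with results of these data known, so the counts describe the lists only.

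**Figure D5:**
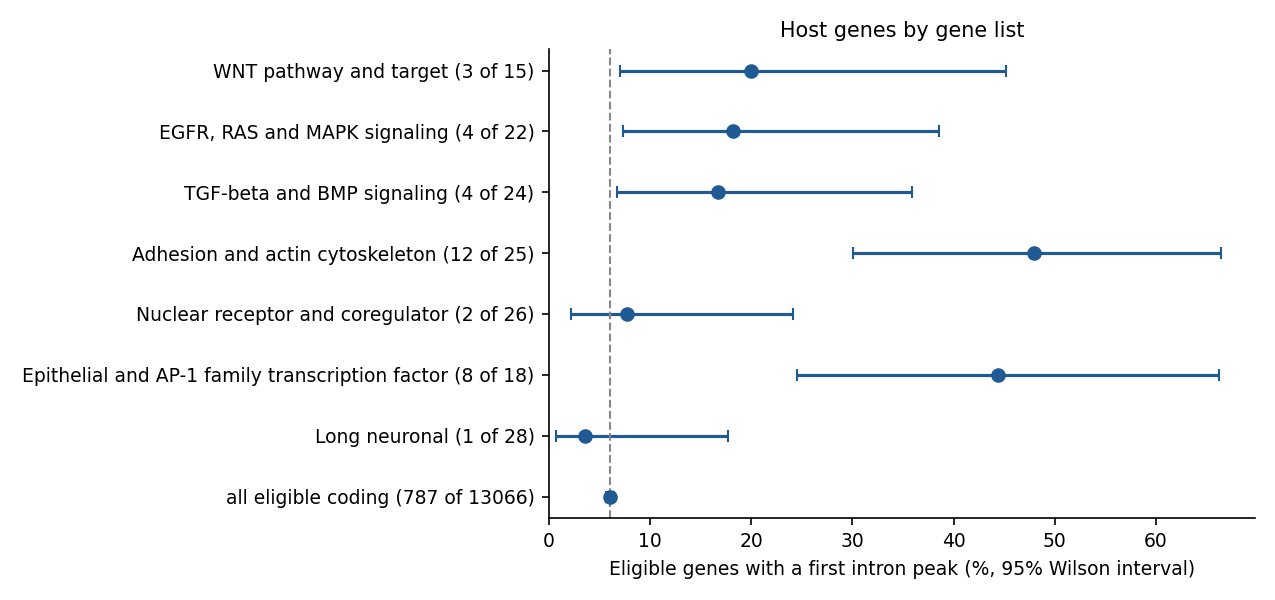
Percent of eligible genes in each list that hold at least 1 first intron peak, with 95% Wilson intervals; the counts are beside the names and the dashed line is the 6.02% of all eligible coding genes. The adhesion list (48.0%) and the transcription factor list (44.4%) lie farthest to the right, and the long neuronal genes (3.57%) lie left of the line. The line is not matched for intron length: the median eligible length of every list but the transcription factor list is above that of all eligible genes.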

How the data were processed

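Reads were mapped by the authors with Bowtie2 (hg19), freed of duplicates with Picard and passed to MACS2 at default settings. The deposited fold enrichment of a peak is a ratio over the control background. The deposited −log10 q-value comes from the authors' MACS2 run, and the p-value column of the 3 lists was not used. How the replicates were combined is not given in the sources used here. Depth per sample is unknown, since the lists hold no read totals.

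Peaks were placed by summit with GENCODE release 44 on GRCh37, which has the sequence of hg19, with the longest transcript taken by genomic span. Overlap meant at least 1 bp. Shares have Wilson intervals and densities exact Poisson intervals, both at 95%, which measure counting error only, and no test was run because no list separates samples. Letters of 13 motifs and of 3 added words were searched in windows around summits and in all tiles of eligible sequence. The members, gene lists and motifs were chosen with earlier results of these data known. Named were the 10 strongest and 3 widest members, the 5 genes with most members, members shared with both other lists or with the ChIP-seq list (there were none), up to 4 hosts per list, and members next to the limit.

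The classes of 300 of 300 peaks equalled those of a direct search. A search for the AP-1 pattern found 200 of 200 planted copies of that same pattern. That search did not cover the windows, the tiles or the other words, so it is no check of them. The analysis used Python 3.11.15, numpy 2.4.6, scipy 1.17.1, pandas 2.3.3, pysam 0.24.0, samtools 1.23.1 and matplotlib 3.10.9. RNA-seq, 4sU-seq and polymerase ChIP-seq samples were not analysed here. The sequence of 1 of the 5 strongest members and the values of 1 host gene of the signaling list are not reported here.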

Additional observations from a re-analysis of the deposited data

How the results depend on the processing

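The 66 alternative values covered other rules for transcripts, TSSs and peak position, stricter peak thresholds, other overlaps and other windows. Of these, 51 stayed within the interval of the value reported, or within 1.5 times for a count. The rest moved as follows. With more than 2 kb from a TSS the density was 3.80 per Mb. With a q-value under 0.001 the median fold enrichment was 4.63, the mouse antibody overlap 9.82% and the density 2.92 per Mb. With a fold enrichment of at least 5 there were 295 members in 267 host genes, with a median of 5.77, a mouse antibody overlap of 6.44%, 1.11 peaks per Mb and AP-1 letters in 600 bp at 53.2%; fewer peaks enter by construction. AP-1 letters were found at 5.67, 35.9 and 50.1% of members in 100, 400 and 600 bp, and the median GC content was 41.0% in 100 bp and 43.2% in 600 bp. The ratio of first to later intron density stayed between 1.58 and 1.76, and the number of members under other rules of position between 927 and 1115. The TSSs of coding and lncRNA transcripts alone, the 600 bp window and the AP-1 share under each rule were added after the data were seen.

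No paired analysis was possible because the goat antibody replicates share 1 peak list and no result comes from a test. The unknown depth limits every absence, since a site without a call is only one under the caller's threshold. The coding genes were taken at 1 transcript each, and overlapping genes share 20 members.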
